A study of Caenorhabditis elegans with 12 samples.

Results

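The 81 histone genes of Caenorhabditis elegans described here are the protein-coding genes of the count table whose symbols begin with his-, hil- or htz- followed by a number. They are 81 of 46687 genes and other features in the table, and of 20528 protein-coding ones. RNA was sequenced from cells of the proximal somatic gonad (PSG), the part of the reproductive tract that holds the spermatheca, in adult hermaphrodites at day 1 (D1) or day 7 (D7). One genotype was daf-2(rf), the reduction-of-function allele daf-2(e1370) of the only insulin/IGF-like receptor of the worm, in which the FOXO transcription factor DAF-16 is more active. The other was daf-16(0); daf-2(rf), which carries daf-2(e1370) together with daf-16(mu86) and is called the double mutant below. There were 4 groups of genotype and day with 3 biological replicates each, and no group had wild-type daf-2. Every strain carried gfp under the fos-1a promoter, and GFP-positive cells sorted from large pools of untreated animals made up each library, so a library is an average over many animals and over every cell type that the promoter marks or the sort let through.

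Histones H2A, H2B, H3 and H4 wrap DNA into nucleosomes, and H1 linker histones bind the DNA between them. In animals most core histone genes lie in clusters, have no introns, are transcribed in S phase, and give mRNAs that end in a stem-loop in place of a poly(A) tail. Variant genes, among them those for H2A.Z and H3.3, usually have introns, are polyadenylated, and are used outside S phase. Adult somatic cells of this worm do not divide, whereas the germ line does.

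By class, the 81 genes comprised 16 core H2A, 17 core H2B, 14 core H3 and 16 core H4 genes, 9 genes listed as variants (his-35, his-40, htz-1 and his-69 to his-74) and 9 linker genes (his-24 and hil-1 to hil-8). Many copies encode the same protein. The count table gave 1 protein record for 17 H2A genes, his-35 among them, 1 for 16 H3 genes including his-40 and his-73, and 1 for all 16 H4 genes including his-37, while the H2B genes fell on 4 records, of which his-41 alone had one. Copies this alike can share reads, and how reads with several matches were counted is not given in the sources used here, so the count of any one copy is uncertain. Groups of copies are therefore also given as sums.

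Libraries held 6183054 to 16407304 counted reads, and 2949 to 11915 of them (0.0223% to 0.0801%) fell on histone genes. Normalization factors (TMM) ran from 0.385 to 3.22, so 1 read was worth 0.0249 to 0.373 CPM (read counts scaled by library size and that factor), and the 10 most abundant genes took 27.3% to 73.5% of a library. daf-16 itself, a check of the labels, had 35.02 to 41.7 CPM in daf-2(rf) and 4.94 to 18.6 CPM in the double mutant on D1, and 13.3 to 43.4 against 6.23 to 10.3 CPM on D7. Where on the locus the reads of the double mutant lie was not tested. All 10 PSG markers listed for a check of the tissue had reads in every library (summed 3099 to 12861 CPM), and 8 body-wall muscle markers summed to 9763 to 89319 CPM. Values are CPM with TMM factors, and levels of different genes are compared per kilobase of exon.

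Nearly all histone reads came from genes with an intron. By the Ensembl annotation of assembly WBcel235, 15 of the 81 genes had an intron in every annotated transcript, and these took 96.8% of all histone reads. The other 66 genes took 3.24%. Each of the 15 had an annotated 3′ UTR, against 2 of the 66. Of the 66, hil-7 and his-57 have transcripts both with and without an intron. Among core genes the split was sharper still, since 2 genes with an intron, his-41 (H2B) and his-37 (H4), held 57.7% of all histone reads and the 61 core genes without one held 2.93%. The labels give the molecule sequenced as poly(A) RNA, which transcripts without a tail enter poorly. Whether the 61 genes were silent or gave mRNA that was not captured cannot be told apart.

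**Figure D1:**
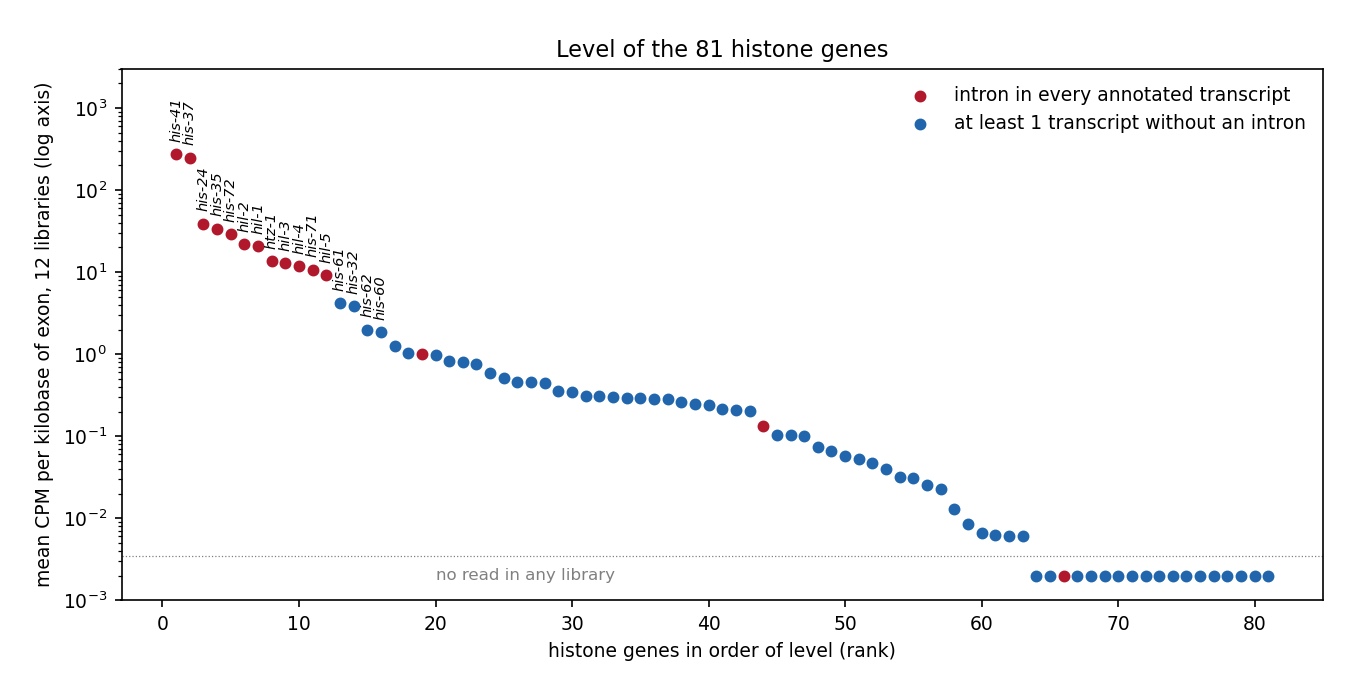
Mean level of each of the 81 histone genes over 12 libraries, in CPM per kilobase of exon on a log axis, in order of rank; red points are genes with an intron in every annotated transcript and blue points the others, and genes with no read are drawn below the dotted line. The first 12 ranks are all held by genes with an intron, from 273 CPM per kilobase for his-41 to 9.24 for hil-5, and 18 genes had no read.

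The mean level over 12 libraries was 273 CPM per kilobase for his-41 and 247 for his-37, the only genes of the set above 40. Linker gene his-24, which encodes H1.1, came next at 38.9, followed by the H2A gene his-35 at 33.7 and the H3.3 gene his-72 at 29.1. The linker genes hil-2 (21.8) and hil-1 (20.6), the H2A.Z gene htz-1 (13.7), hil-3 (12.9), hil-4 (11.8), the H3.3 gene his-71 (10.7) and hil-5 (9.24) completed the first 12. These 12 were also the ones with more than 10 reads in every library.

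Below them, the levels fell quickly. The H2A copy his-61 had 4.19 CPM per kilobase, the H3 copy his-32 had 3.85, the H2B copy his-62 had 1.97 and the H4 copy his-60 had 1.84. Linker gene hil-7 had 1.25, the H3 copy his-59 had 1.04 and the H3.3 gene his-74 had 1.01. The next highest copies were his-68, his-3 and his-7 (H2A), his-48 and his-4 (H2B), his-13 and his-9 (H3) and his-38 and his-5 (H4), each between 0.261 and 0.969. In all, 18 genes had no read in any library, which allows up to 3 reads a library, and 54 genes never exceeded 10 reads in a library. Of the linker genes, hil-6 had no read and hil-8 had 2. The remaining variant genes his-40, his-69, his-70 and his-73 had 2 to 16 reads over all libraries.

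Position followed the same split. Grouping genes no more than 10000 bases apart gave 14 clusters with 67 genes, and 14 genes stood alone. The cluster of his-35, his-41 and his-37 on chromosome V, from 9544651 to 9547609, held 61.7% of all histone reads, and each of its genes has an intron. The largest cluster, 13 genes on chromosome II between 13817759 and 13828697, held 0.368%. A cluster of 6 genes on chromosome V, from 8847393 to 8854053 (his-49 to his-54), had no read. Among clusters made only of genes without introns the most reads were in his-59 to his-62 on chromosome IV, from 7485748 to 7489142, with 1.18%.

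In H2A, H2B, H4 and H3.3, 1 gene held most of the reads in every library. his-41 held 97.3% to 99.8% of H2B reads in each of the 12 libraries. his-37 held 92.6% to 99.7% of H4 reads. For H2A the gene was his-35, with 75.7% to 93.4%, and for H3.3 it was his-72, with 56.5% to 86.9%. Core H3 differed, since its genes have no introns and none held most of the reads in every library. Its most abundant copy, his-32, held 7.69% to 57.9% of the reads of all 15 H3 genes, his-40 included, which had 13 to 223 reads a library. his-41 overlaps the gene C50F4.6 on the same strand by 174 bases and his-37 overlaps nstp-10 on the other strand by 2 bases, and since the strand setting of the counting is not given in the sources used here, reads there cannot be assigned further.

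Linker genes gave the clearest difference between the genotypes, on D1. hil-5 had 3.33, 1.56 and 3.34 CPM in the 3 daf-2(rf) libraries and 22.7, 18.4 and 17.4 CPM in the 3 double mutant libraries. hil-4 had 6.06, 3.65 and 4.89 CPM in daf-2(rf) and 27.2, 23.3 and 24.4 CPM in the double mutant. For both genes every daf-2(rf) library lay well below every double mutant library. hil-5 was lower in daf-2(rf) by a log2 fold change of -2.88 ± 0.45 (SE, n = 3 and 3), or 7.36-fold (edgeR quasi-likelihood test, Benjamini-Hochberg adjusted p = 0.0202). hil-4 was lower by a log2 fold change of -2.42 ± 0.39, or 5.34-fold (edgeR, Benjamini-Hochberg adjusted p = 0.0202). A call here and below needs an adjusted p under 0.05 over all genes tested and a log2 fold change of at least 1 in size. hil-4 and hil-5 were the 2 called genes of 12 histone genes tested on D1, while 3.51% of all 6430 genes tested were called. Both calls were lost when any 1 of the 3 daf-2(rf) D1 libraries was left out, with adjusted p up to 0.0891 (edgeR, Benjamini-Hochberg). Those 3 fits called only 0.0308% to 0.235% of all genes. Both calls remained without any 1 of the double mutant libraries, in fits that called 1.95% to 7.35% of all genes. With all 12 libraries in 1 fit the hil-4 call was lost too (edgeR, Benjamini-Hochberg adjusted p = 0.0834) and that of hil-5 was not. The log2 fold changes over the fits that left out 1 library ran from -3.07 to -2.58 for hil-5 and from -2.61 to -2.23 for hil-4.

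hil-1, the linker gene H1.X, whose protein has also been found in the cytoplasm, went the other way. It had 32.6, 30.03 and 29.7 CPM in daf-2(rf) on D1 and 11.9, 4.32 and 14.5 CPM in the double mutant. The groups did not overlap, and the log2 fold change was 1.55 ± 0.47 (edgeR, Benjamini-Hochberg adjusted p = 0.0941), which missed the threshold. It passed with DESeq2 (Benjamini-Hochberg adjusted p = 0.0335), which called 11.8% of all genes on D1. hil-1 was the 1 histone gene on D1 whose daf-2(rf) libraries all lay above the double mutant ones, a pattern seen in 18.2% of all genes tested.

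The reverse pattern, every daf-2(rf) library below every double mutant one, was seen in 5 of the 12 histone genes tested on D1, hil-2 to hil-5 and htz-1, and in 14% of all genes. hil-2 had 5.35, 18.04 and 5.28 CPM in daf-2(rf) and 40.6, 24.7 and 21.9 CPM in the double mutant. hil-3 had 4.40, 7.82 and 7.14 CPM against 19.4, 10.1 and 13.7 CPM. htz-1, which encodes the H2A.Z that replaces H2A at many promoters, had 7.73, 5.63 and 8.39 CPM against 50.3, 18.01 and 10.9 CPM. None of these 3 genes passed in the edgeR fit. Their log2 fold changes were -1.67 for hil-2 (adjusted p = 0.116), -1.20 for hil-3 (0.137) and -1.91 for htz-1 (0.0894), all by edgeR with Benjamini-Hochberg adjustment.

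In the core gene his-37, the H3.3 gene his-72, the linker gene his-24 and htz-1 the D1 difference rested largely on replicate 1 of the double mutant. That was the library with the fewest reads. his-37 had 133, 60.3 and 112 CPM in daf-2(rf) and 409.8, 111 and 216 CPM in the double mutant. his-72 had 14.4, 6.05 and 11.1 CPM in daf-2(rf) and 71.96, 16.5 and 13.7 CPM in the double mutant. his-24 had 23.7, 32.1 and 18.1 CPM against 91.3, 29.5 and 52.4 CPM. For each of these the highest value was that of replicate 1, and for his-37 and his-24 the groups overlapped, as they did for his-72. Without that library the log2 fold change went from -1.34 to -0.67 for his-37, from -1.75 to -0.51 for his-72, from -1.29 to -0.73 for his-24 and from -1.91 to -0.99 for htz-1. hil-5 (-2.68) and hil-4 (-2.28) moved less and kept their calls (edgeR, Benjamini-Hochberg adjusted p = 0.0302 for each). his-41 did not separate at all. It had 182, 168 and 188 CPM in daf-2(rf) and 252, 196 and 158 CPM in the double mutant.

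Over the 12 histone genes tested on D1, 11 had a lower fitted level in daf-2(rf), as had 50.9% of all genes, and the median log2 fold change was -1.31, beside -0.02 over all genes. All 12 passed the filter on low counts in both groups. In each of them but hil-1 the highest D1 value was that of replicate 1 of the double mutant. At an unadjusted p under 0.05 there were 8 lower and 1 higher, beside 13.5% and 11.4% of all genes.

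**Figure D2:**
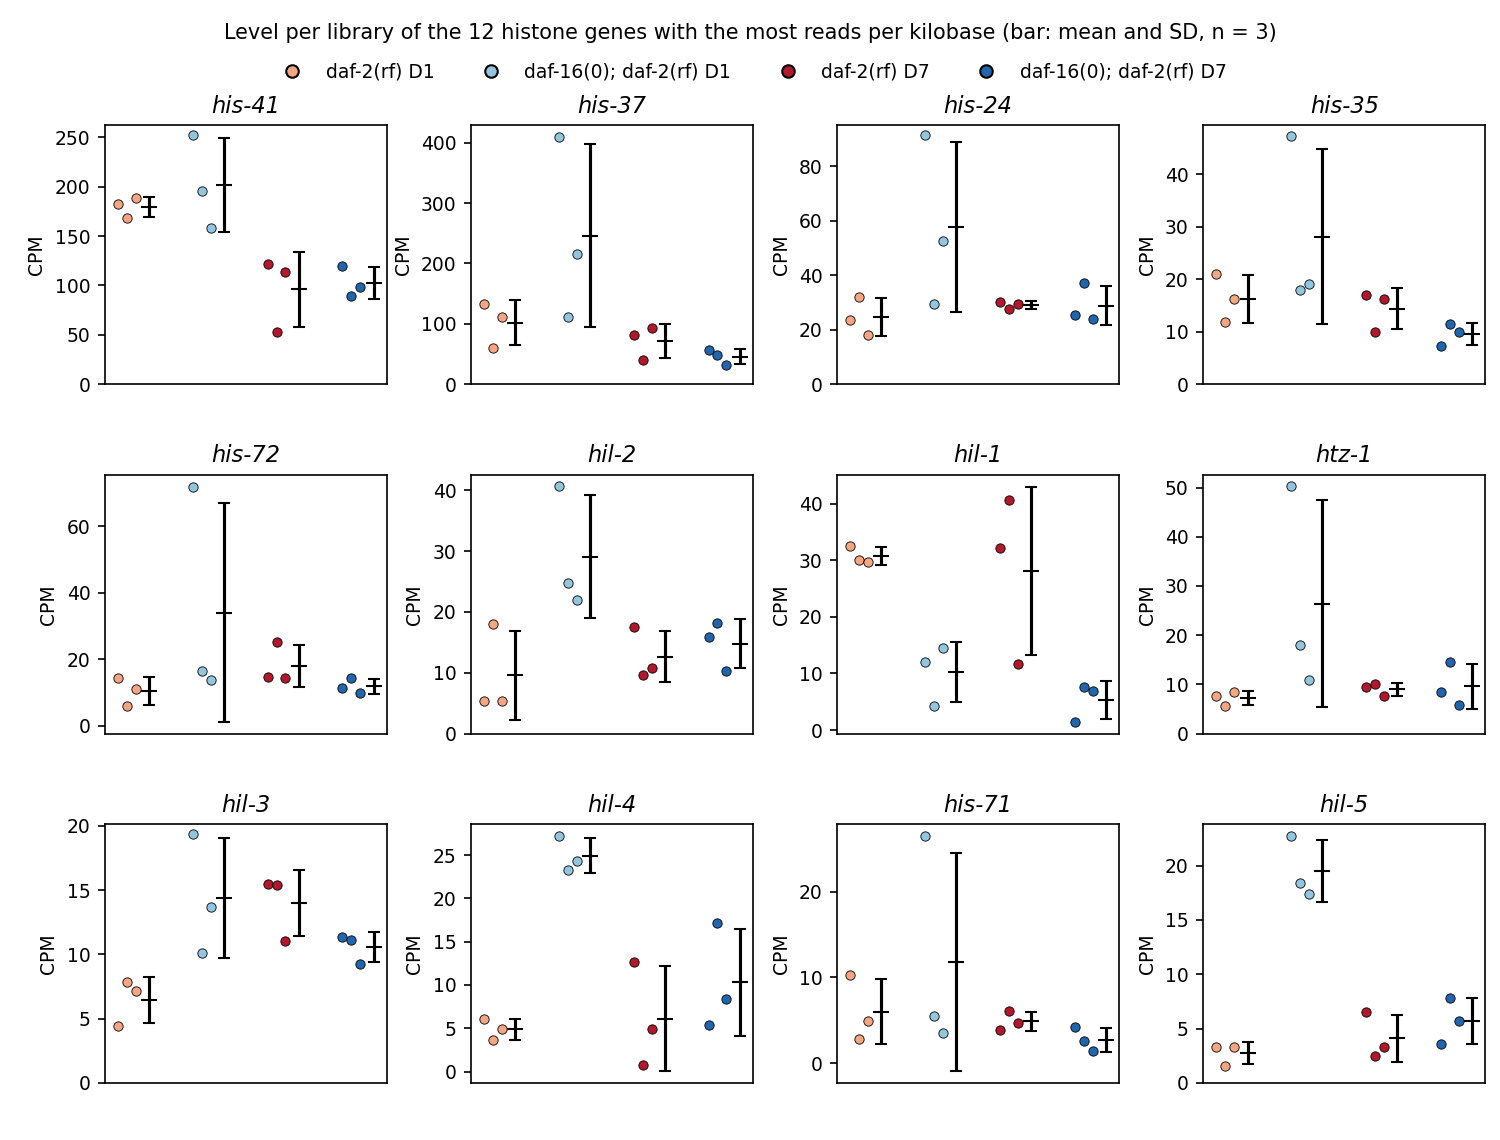
Level in CPM (vertical axes, each with its own range) of the 12 histone genes with the most reads per kilobase, with 1 point per library in each of the 4 groups and a bar for the mean and SD of 3 libraries. hil-4 and hil-5 are high in all 3 double mutant libraries on D1, and hil-1 is high in daf-2(rf) on both days with 1 low library on D7. In every gene shown but hil-1 the top point is replicate 1 of the double mutant on D1.

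On D7 no histone gene was called between the genotypes. The edgeR count was 0 of 18 tested, beside 1.15% of all 7933 genes tested. At an unadjusted p under 0.05 there were 2 genes, hil-1 and hil-7, and DESeq2 called 1, hil-1. Those 2 rules took 18.8% and 8.85% of all genes. hil-1 had 32.2, 40.6 and 11.6 CPM in daf-2(rf) and 1.44, 7.56 and 6.95 CPM in the double mutant. The groups did not overlap, which 12.2% of all genes share in this direction, and the log2 fold change was 2.40 ± 0.66 (edgeR, Benjamini-Hochberg adjusted p = 0.114). With DESeq2 the same gene had a Benjamini-Hochberg adjusted p of 0.00726. hil-1 was thus the 1 linker gene whose daf-2(rf) libraries lay above the double mutant ones on both days.

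hil-7 had 0.872, 0.0748 and 0.422 CPM in daf-2(rf) and 1.34, 2.91 and 0.813 CPM in the double mutant on D7, with overlapping groups and few reads. It passed the filter through the double mutant alone. hil-4 and hil-5, which differed on D1, overlapped on D7. hil-5 had 6.54, 2.47 and 3.29 CPM in daf-2(rf) and 3.56, 7.81 and 5.69 CPM in the double mutant. hil-4 had 12.6, 0.698 and 4.92 CPM in daf-2(rf) and 5.36, 17.2 and 8.35 CPM in the double mutant. Both genes varied more among the D7 libraries of daf-2(rf) than among those of D1. Of the 18 histone genes tested on D7, 12 had a higher fitted level in daf-2(rf), and the median log2 fold change was 0.50 beside 0.03 over all genes, but 52% of all genes had a higher fitted level too and 5 of the 18 had passed the filter through 1 group alone.

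Between D1 and D7 in daf-2(rf) no histone gene was called. The edgeR count was 0 of 17 tested, beside 0.218% of all 7337 genes, DESeq2 also called 0 (8.87% of all genes), and 3 genes had an unadjusted p under 0.05 (22.2% of all genes). hil-3 had 4.40, 7.82 and 7.14 CPM on D1 and 15.5, 15.4 and 11.1 CPM on D7. The days did not overlap (log2 fold change 1.16 ± 0.33, edgeR with Benjamini-Hochberg adjusted p = 0.108). The H4 copy his-60 had 0.238, 0.417 and 0.466 CPM on D1 and 1.92, 0.773 and 0.675 CPM on D7, and it passed the filter through D7 alone. his-41 had 182, 168 and 188 CPM on D1 and 122, 52.9 and 113 CPM on D7. It was thus lower in every D7 library, with a log2 fold change of -0.86 (edgeR, Benjamini-Hochberg adjusted p = 0.208). In 13.4% of all genes every D7 library was higher, as for hil-3 and his-60, and in 14.9% every one was lower, as for his-41.

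In the double mutant most of the abundant histone genes had lower values on D7, and none was called by edgeR. The count was 0 of 14 tested, beside 0.583% of all 7541 genes. At an unadjusted p under 0.05 there were 9 genes, all lower on D7, beside 15.1% of all genes. DESeq2 called 4 (hil-5, his-35, his-37 and his-71), also lower, beside 17.9% of all genes. his-37 went from 409.8, 111 and 216 CPM to 56.2, 48.7 and 31.5 CPM, with the highest D7 value below the lowest D1 value. The log2 fold change was -2.45 ± 0.56 (edgeR, Benjamini-Hochberg adjusted p = 0.0601). hil-5 went from 22.7, 18.4 and 17.4 CPM to 3.56, 7.81 and 5.69 CPM (log2 fold change -1.79 ± 0.41, edgeR with Benjamini-Hochberg adjusted p = 0.0601). his-35, an H2A gene with an intron beside his-37, went from 47.4, 18.01 and 19.1 CPM to 7.32, 11.4 and 9.98 CPM (-1.57, edgeR with Benjamini-Hochberg adjusted p = 0.0763). In these 3 genes no D7 library reached the level of any D1 library.

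hil-4, his-41 and hil-2 also had every D7 library below every D1 library, which makes 6 of the 14 tested, beside 17.6% of all genes. Their log2 fold changes were -1.30, -0.99 and -0.99. his-71 went from 26.5, 5.46 and 3.51 CPM to 4.22, 2.54 and 1.40 CPM and overlapped. his-72 went from 71.96, 16.5 and 13.7 CPM to 11.4, 14.2 and 9.83 CPM, and htz-1 from 50.3, 18.01 and 10.9 CPM to 8.50, 14.6 and 5.77 CPM. In these last 3 genes replicate 1 on D1 was the highest library by far. Without it the log2 fold change went from -2.07 to -0.70 for his-71, from -1.53 to -0.33 for his-72, from -1.46 to -0.57 for htz-1 and from -1.57 to -0.94 for his-35. Without it his-37 went from -2.45 to -1.82 and hil-5 from -1.79 to -1.64. Leaving out replicate 2 on D1 instead brought 2 genes, his-37 and hil-5, past the threshold. That fit called 8.41% of all genes, beside 0.583% with all 6 libraries.

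**Figure D3:**
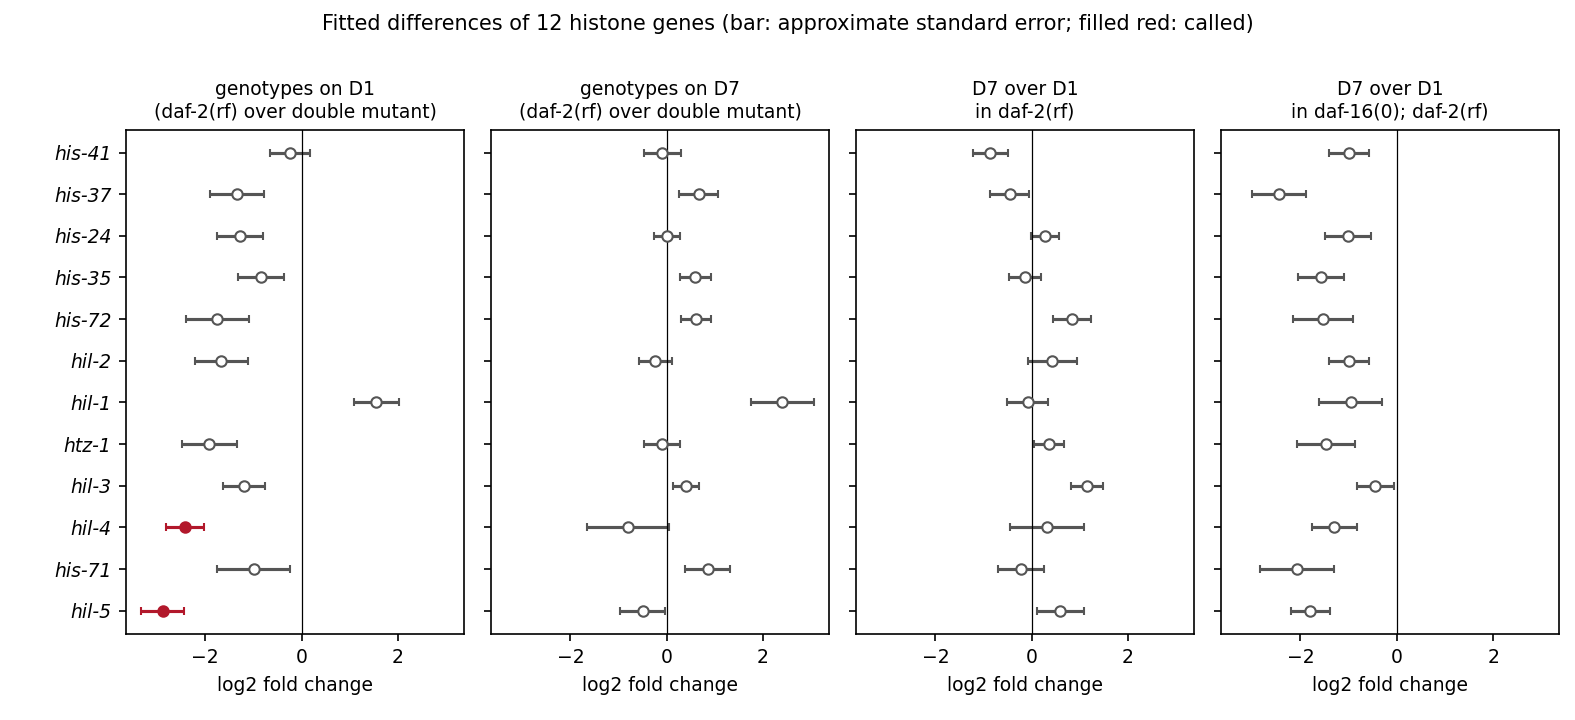
Fitted log2 fold change (horizontal axes) of 12 histone genes in the 4 comparisons, with bars for the approximate standard error and filled red points for the called genes. The called points are hil-4 and hil-5 in the D1 comparison of the genotypes; on D1 and in the age comparison of the double mutant nearly every point lies left of 0, while on D7 and in the age comparison of daf-2(rf) they lie on both sides.

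The double mutant D1 libraries enter both the D1 comparison and the age comparison of that genotype, so these 2 comparisons are not independent of each other. The difference itself was tested as an interaction over all 12 libraries, the genotype difference on D7 minus that on D1. No histone gene passed. The edgeR count at an adjusted p under 0.05 was 0 of 18 tested, beside 0.704% of all 8096 genes, and DESeq2 called 2, hil-3 and hil-5, beside 10.4% of all genes. At an unadjusted p under 0.05 there were 9 genes, all with a positive estimate, beside 12.3% of all genes in that direction. hil-5 had the lowest p, with a difference of 2.33 ± 0.63 on the log2 scale (edgeR, Benjamini-Hochberg adjusted p = 0.0776). hil-3 had 1.54 ± 0.48 (edgeR, Benjamini-Hochberg adjusted p = 0.102). his-72 had 2.28, his-37 1.93, htz-1 1.74, his-35 1.36 and his-24 1.24 on the same scale, and leaving out replicate 1 of the double mutant on D1 took these 5 to 1.13, 1.34, 0.90, 0.77 and 0.74. All 18 estimates were above 0 with a median of 1.55, beside 48.5% of all genes above 0 and a median of -0.05, though 6 of the 18 did not have more than 10 reads in every library.

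As sums over all 81 genes, daf-2(rf) on D1 gave 409 ± 52.6 CPM (mean ± SD of 3 libraries). The sums were 723 ± 329 CPM in the double mutant on D1, 322 ± 67.5 in daf-2(rf) on D7 and 266 ± 30.8 in the double mutant on D7. The range on D1 was 351 to 455 in daf-2(rf) and 491 to 1100 in the double mutant. The ranges were thus apart on D1 by less than the SD of the double mutant, and only with the TMM factors. As plain shares of all reads, histone genes took 0.0483%, 0.0229% and 0.0392% of the daf-2(rf) D1 libraries. In the double mutant D1 libraries the shares were 0.0477%, 0.0385% and 0.0223%, which overlapped. On D7 the ranges of the summed CPM overlapped. The 61 core genes without introns summed to 8.03 ± 4.47 CPM in daf-2(rf) and 14.6 ± 5.13 in the double mutant on D1, and to 13.02 ± 5.02 and 7.47 ± 1.95 on D7. With 1 read worth up to 0.373 CPM, these sums rest on few reads, and the ranges of the genotypes overlapped on both days. Within these core genes without introns, taken by class, the genotypes were apart on D1 for the 16 H2A genes. These summed to 0.834 to 2.85 CPM in daf-2(rf) and to 3.71 to 6.13 CPM in the double mutant. That separation rests on the copy his-68, described below, and the H2A ranges overlap without it. On D7 the genotypes were only just apart for the 14 H3 genes, with 3.22 to 8.28 CPM in daf-2(rf) and 2.48 to 3.18 CPM in the double mutant. They were also apart for the 16 H2B genes, with 1.40 to 3.23 against 0.515 to 1.03 CPM. The other sums of core genes without introns by class overlapped within each day. The 9 linker genes summed to 68.7 to 93.5 CPM in daf-2(rf) and to 112 to 217 CPM in the double mutant on D1. These were apart, again only with the TMM factors, since as plain shares of all reads they overlapped. Replicate 3 of the double mutant on D1 had 833 linker reads of 14831720. Replicate 2 of daf-2(rf) on D1 had 897 of 14716984. On D7 the linker sums overlapped.

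Among the H2A copies, his-68 had no read in any daf-2(rf) D1 library and 5, 11 and 9 reads in the double mutant, or 1.86, 1.13 and 1.58 CPM. It fell under the filter and was picked after its values were seen. With 3 reads a library, the most that a count of 0 allows, put in for daf-2(rf), the double mutant mean was 5.07-fold higher. That value leaves out the sampling error of the 5, 11 and 9 reads, and the difference was not tested. On D7 his-68 had 0.0515 to 0.148 CPM in the double mutant.

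**Figure D4:**
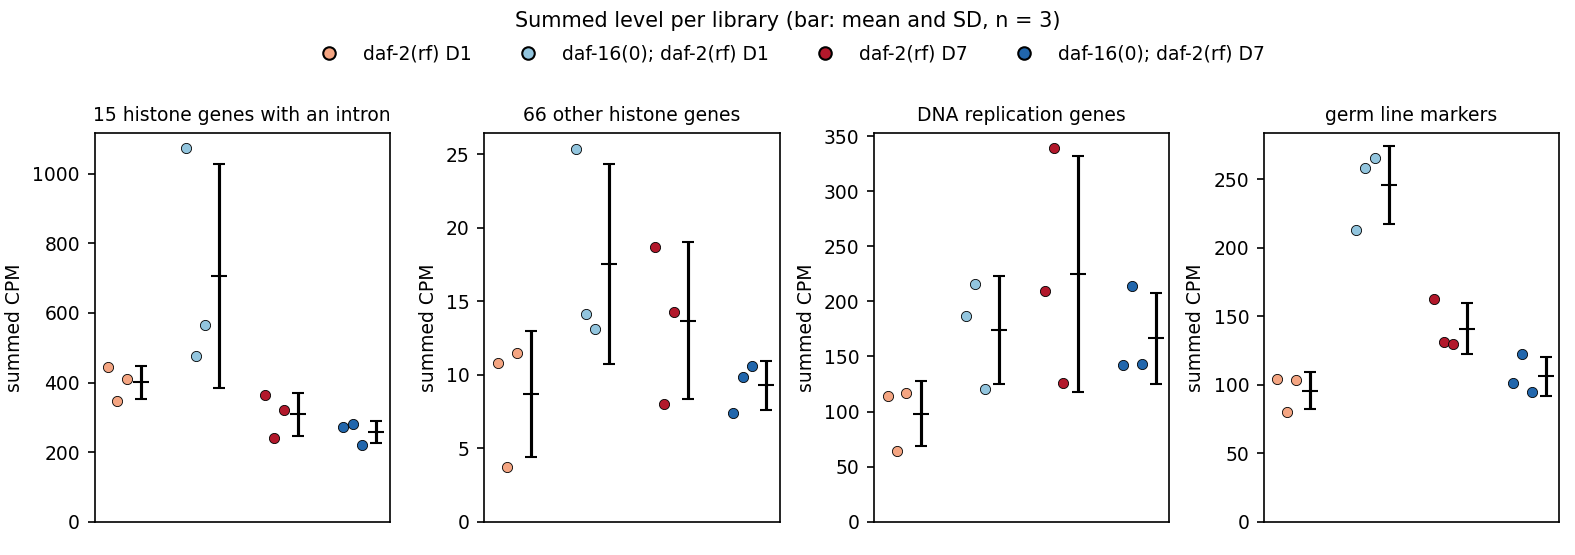
Summed CPM per library (vertical axes from 0) of the 15 histone genes with an intron, the 66 other histone genes, the listed DNA replication genes and the listed germ line markers, with 1 point per library in each of the 4 groups and a bar for the mean and SD of 3 libraries. Germ line markers are higher in all 3 double mutant libraries on D1 (213 to 266 CPM) than in the daf-2(rf) ones (79.8 to 104 CPM).

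Markers of another tissue differed on D1 in the same direction as hil-4 and hil-5, the 2 called linker genes. Of 24 germ line genes listed, 12 were tested and 8 were called, all lower in daf-2(rf), beside 3.51% of all genes. Among the 8 were pos-1 (log2 fold change -3.77) and puf-5 (-3.01), maternal RNA-binding proteins (edgeR, Benjamini-Hochberg adjusted p = 0.0202 and 0.0256). Only 10 of the 24 were tested between the days in daf-2(rf). Some of the 12 therefore passed the filter through the double mutant alone, the group with the higher sum. The list summed to 79.8 to 104 CPM in daf-2(rf) and 213 to 266 CPM in the double mutant, and to 129 to 162 and 94.8 to 122 CPM on D7. Up to 7 of the 24 were at 0 in a library. In the double mutant the list had a median log2 fold change of -2.21 from D1 to D7. Of 14 tested, 2 were called, puf-5 and cbd-1, both lower, beside 0.583% of all genes. Only 12 of the 24 were tested between the genotypes on D7, so some of the 14 passed the filter through D1 alone. Of 10 intestine markers, 7 were tested on D1 and 4 called, all lower in daf-2(rf), where the list summed to 418 to 676 CPM against 481 to 2032 CPM. On D7, 2 of 8 intestine markers were called, act-5 and pept-1, again lower in daf-2(rf), beside 1.15% of all genes. Of 7 gonadal sheath markers tested on D1, mup-2 alone was called, and it was lower in daf-2(rf). The fitted level was higher in daf-2(rf) in 5 of the 7 and lower in 2, with a median log2 fold change of 0.63. Of 10 PSG markers 0 were called by edgeR on D1, with 3 at an unadjusted p under 0.05, all higher in daf-2(rf), and 2 called by DESeq2. The part of these cells in the differences of hil-4, hil-5 and the other histone genes was not tested. In sorted bulk cells, fewer cells of a type and less RNA per cell cannot be told apart. Sperm and early embryo markers were under the filter in each comparison, with at most 14.2 and 5.36 CPM summed.

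The genes that make, carry and exchange histones were given by lists. Of 13 histone mRNA processing and polyadenylation genes, which include cdl-1, the stem-loop binding protein, 11 were tested in each of the 4 comparisons and 0 were called by edgeR. At an unadjusted p under 0.05 there were 0 to 2 a comparison, and DESeq2 called 1, between the days in daf-2(rf). Their median log2 fold change on D1 was 0.07. Of 10 genes of the H2A.Z exchange complexes 9 were tested on D1 and 0 called by edgeR, with 2 at an unadjusted p under 0.05 and 1 called by DESeq2. Their median log2 fold change on D1 was -0.21, beside the -1.91 of htz-1 itself. Histone chaperones, which bring histones to and from DNA, had 1 call of 7 tested on D1, beside 3.51% of all genes. It was nasp-2, an H3 chaperone of the NASP family, lower in daf-2(rf) with a log2 fold change of -2.88 ± 0.50 (edgeR, Benjamini-Hochberg adjusted p = 0.0212). The chaperone list summed to 104 to 209 CPM in daf-2(rf) on D1 and 470 to 831 CPM on D7, with 0 of 12 called between the days by edgeR. At an unadjusted p under 0.05 there were 7, all higher on D7, beside 11.8% of all genes in that direction. DESeq2 called 3, beside 8.87% of all genes. Only 7 of the listed chaperone genes were tested on D1, so some of the 12 passed the filter through D7 of daf-2(rf) alone. The filter therefore favoured a higher D7 level in these counts.

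S-phase genes were also listed, because replication-type histone genes are used with them. On D1, 3 of 20 tested were called, all lower in daf-2(rf), beside 3.51% of all genes. They were pcn-1 (PCNA, log2 fold change -2.08), rnr-2 (a ribonucleotide reductase subunit, -2.17) and rfc-2 (a clamp loader subunit, -2.71), with edgeR Benjamini-Hochberg adjusted p of 0.0305, 0.0427 and 0.0466. The median of the 20 was -1.02. Between D1 and D7 in daf-2(rf), 28 of 28 tested had a higher fitted level on D7, beside 53.2% of all genes. Their median log2 fold change was 1.41 beside 0.07 over all genes, and 0 were called by edgeR. At an unadjusted p under 0.05 there were 14, all higher on D7, beside 11.8% of all genes in that direction. DESeq2 called 9, beside 8.87% of all genes. Only 20 of the listed genes were tested on D1, so some of the 28 passed the filter through D7 of daf-2(rf) alone. The filter therefore favoured a higher D7 level in the counts of this comparison. Over the same comparison the 17 histone genes tested had a median of 0.36. On D7 between the genotypes and in the age comparison of the double mutant, 0 of 28 and 0 of 27 were called by edgeR, with 4 and 4 at an unadjusted p under 0.05 and 0 and 2 called by DESeq2. An unadjusted p under 0.05 took 18.8% and 29.7% of all genes there, and DESeq2 called 8.85% and 17.9%.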

How the data were processed

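The deposited table of gene counts was used. Per the labels and the study's methods, poly(A) RNA of sorted cells was amplified (SMARTer Ultra Low), sequenced as paired ends, trimmed with fastp, aligned with HISAT2 2.0.5 to WBcel235 and counted by the authors with featureCounts 1.5.0-p3. The strand setting is not given in the sources used here. A deposited FPKM table was not used. Groups came from the labels (12 libraries, 3 per group). A gene was tested where each of the 3 replicates of some group in the fit exceeded 10 readswith the quasi-likelihood test of edgeR 4.0.16 (R 4.3.3, TMM), with Benjamini-Hochberg adjustment over all genes tested. Standard errors are approximate, from the size of each fold change (log2) and the root of its F statistic. Each pairwise comparison used its own 6 libraries, and the interaction used 12. Alternatives were DESeq2 1.42.0, DESeq2 size factors, upper-quartile scaling, other filters, no fold threshold, a replicate block, 1 fit of all libraries, and leaving out each library. The test was checked on simulated counts. Introns and 3′ UTRs came from the Ensembl 115 annotation, in which all 81 genes were found by sequence name. No 2 replicates agreed within sampling noise. Members and gene lists were chosen with earlier results of these data known. Named genes were those called, every variant or linker gene tested, the 4 most abundant core genes of each class, and up to 4 called genes per list and comparison. No sequence is printed, since none was at hand. Depth limits precision for all but the 12 abundant genes.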

Additional observations from a re-analysis of the deposited data

How the results depend on the processing

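The direction of the log2 fold change did not turn for any histone gene named with one, under any alternative run. Counts of called histone genes changed by more than 1.5 times as follows. With DESeq2 they were 1 on D7 (hil-1), 5 on D1 (hil-1, hil-2, hil-4, hil-5 and htz-1), 4 for age in the double mutant and 2 for the interaction. In that order DESeq2 called 8.85%, 11.8%, 17.9% and 10.4% of all genes. With no filter on low counts they were 1 on D7, 6 on D1 (his-68 and his-72 among them), 1 for age in daf-2(rf) (hil-3), 4 for age in the double mutant and 2 for the interaction, where 3.06% to 6.69% of all genes were called. With all 12 libraries in 1 fit they were 1 on D1 (hil-5) and 3 for age in the double mutant, beside 2.69% and 11.6% of all genes. Leaving out 1 library gave 0 to 2 on D1 and 0 to 2 for age in the double mutant, and 0 for the other results. Those fits called 0.0308% to 7.35% of all genes on D1 and 0% to 8.41% for age in the double mutant. DESeq2 size factors, upper-quartile scaling, more than 10 reads in every library and no fold threshold left the counts within 1.5 times of those reported. Samples share only a replicate number. Same-numbered libraries had a mean correlation of deviations of -0.0273 over 18 pairs (-0.283 to 0.298), against 0.0127 over 36 other pairs. With the replicate block the count on D1 was 4 (hil-1, hil-2, hil-4 and hil-5), beside 7.43% of all genes, and 0 for the other results. The cause of these changes was not tested. Removing the filter moved the median log2 fold change over all genes from 0.03 to -0.25 on D7, from 0.08 to 0.55 for age in the double mutant and from -0.05 to -0.40 for the interaction.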
